A study of Mus musculus with 6 samples.

Results

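The Arp2/3 complex is the machine that starts a new actin filament from the side of an existing one and so builds branched actin networks. It consists of the actin-related proteins Arp2 (gene Actr2) and Arp3 (Actr3), which together mimic an actin dimer, and 5 further subunits encoded by Arpc1a or Arpc1b, Arpc2, Arpc3, Arpc4, and Arpc5 or Arpc5l. On its own the complex is nearly inactive. Nucleation-promoting factors of the WASP, WAVE and WASH groups switch it on, and proteins such as coronins, Arpin and glia maturation factor hold it back or take branches apart. In the developing brain branched actin is known from growth cones, migrating neurons, dendritic spines and endocytic pits.

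The subunit genes were followed in total RNA of whole brains from E18.5 mouse embryos on a C57/bl6 background, with 1 array for each of 3 wild-type and 3 Foxf2 mutant samples. Foxf2 is a forkhead factor best known from the pericytes of brain capillaries, and the study set mutant brains against wild-type brains. The labels do not describe the allele, its zygosity, or whether an array held RNA of 1 embryo or of several, so p-values measure only the spread between these 6 samples. A probe set is a group of short probes read as 1 value, here a MAS5 intensity on the linear scale. All 9 subunit genes were searched for, and 14 of 45037 probe sets were annotated to exactly 1 of them. These 14 belonged to 6 genes: 4 to Arpc5l, 3 to Actr3, 2 each to Arpc2, Arpc4 and Arpc5, and 1 to Arpc1a. Arpc1b appeared only on 2 probe sets annotated to a second gene as well, and Actr2 and Arpc3 had no probe set named for them here, so they were not analysed here.

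The complex was chosen by the values of 1 Actr3 probe set, 1426392_a_at, which read higher in the mutant brains and passed the threshold, an adjusted p of limma under 0.05. That difference is therefore a description. The same holds for the other subunits, since they were read in the same contrast. The suffix of a probe set says how specific its probes are. A plain _at set was designed for 1 transcript, an _a_at set for several transcripts of 1 gene, an _s_at set also matches transcripts of other genes, and an _x_at set holds probes that resemble unrelated sequences. Of the 14 probe sets, 10 were plain _at, 3 were _a_at, 1 was _s_at and 0 were _x_at. Of the 14, 11 were bright enough to be tested, which required a mean intensity at or above the 40th percentile, 13.5.

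Several features of the arrays bear on what follows. The median intensity lay between 23.1 and 23.6 in wild-type samples and between 24.3 and 25.5 in mutant samples. The brighter Foxf2 probe set read 18.6, 24.4 and 13.8 in wild-type and 8.06, 3.31 and 7.57 in mutant arrays, too dim to be tested. Neuronal markers were bright, with Tubb3 at 2241 in the wild-type mean. Mutant array 3 stood apart by skeletal muscle transcripts: the summed intensity of the 7 muscle markers was 1495 there and 102 to 125 on the other 5 arrays. Wild-type array 3 stood apart by pituitary transcripts, with 1592 for Gh against at most 203 elsewhere. Summed intensities of marker lists also differed without overlap. The 6 endothelial markers summed to 693 to 719 in wild-type and 518 to 592 in mutant arrays. The 6 radial glia and astrocyte markers summed to 7752 to 8578 and 8692 to 9369, and the 7 neuronal markers to 13553 to 13688 and 13822 to 14299. These sums rest on their brightest members, and single markers went both ways. Of the endothelial markers 4 were lower, with Cldn5 at a log2 difference of -0.43 and Kdr at -0.41, while Cdh5 was at 0.29 and Pecam1 at 0.02, or -0.03 with median centring. Among the glial markers 5 were higher, of which Vim passed the threshold with 0.45 on an _x_at set, and Nes was at -0.30. Of the neuronal markers 4 were higher, with Neurod6 at 0.32 and Gad1 at 0.31, both without overlap and without passing the threshold. The other 3 were lower, Map2 at -0.19, Slc17a6 at -0.10 and Tubb3 at -0.05. The summed intensities of the 10 microglia and macrophage markers overlapped, with 726 to 861 and 771 to 850. Of the 9 tested, 7 were higher and 2 lower, or 6 and 3 with median centring, and the median log2 difference was 0.13. Lyz2 was at 0.41 without overlap and without passing the threshold, and C1qc was lower at -0.18. The part of these markers in the values below was not tested.

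Actr3, the subunit that with Arp2 forms the base of the new filament, was read by 3 probe sets that did not move alike. Probe set 1426392_a_at read 575, 497 and 713 in wild-type brains, and 1290, 1094 and 1402 in mutant brains. All 3 mutant values lay above all 3 wild-type values and the lowest mutant value, 1094, exceeded the highest wild-type value, 713. The wild-type mean was 595 ± 110 (SD, n = 3) and the mutant mean 1262 ± 156 (SD, n = 3). The log2 difference was 1.07 ± 0.13 (SE). In whole-brain RNA, a change in the number of cells that hold a transcript and a change in the amount per cell cannot be told apart.

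Probe set 1434968_a_at, also of suffix _a_at, gave 993, 1090 and 1241 in wild-type and 1290, 1222 and 1386 in mutant arrays. The groups overlapped only because mutant array 2 lay just below wild-type array 3. The log2 difference was 0.23 ± 0.09 (SE), with a 95% interval of limma from 0.03 to 0.43, and it did not pass the threshold over all tested probe sets. Its unadjusted limma p of 0.027 became 0.085 with median centring. It was 0.0050 without wild-type array 3 and 0.11 without wild-type array 1. Probe set 1452051_at, a plain _at set, gave 786, 798 and 789 in wild-type and 842, 741 and 780 in mutant arrays. Here the mutant values spread around the wild-type values, and the log2 difference was -0.01 ± 0.06 (SE), with a 95% interval from -0.15 to 0.14.

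**Figure D1:**
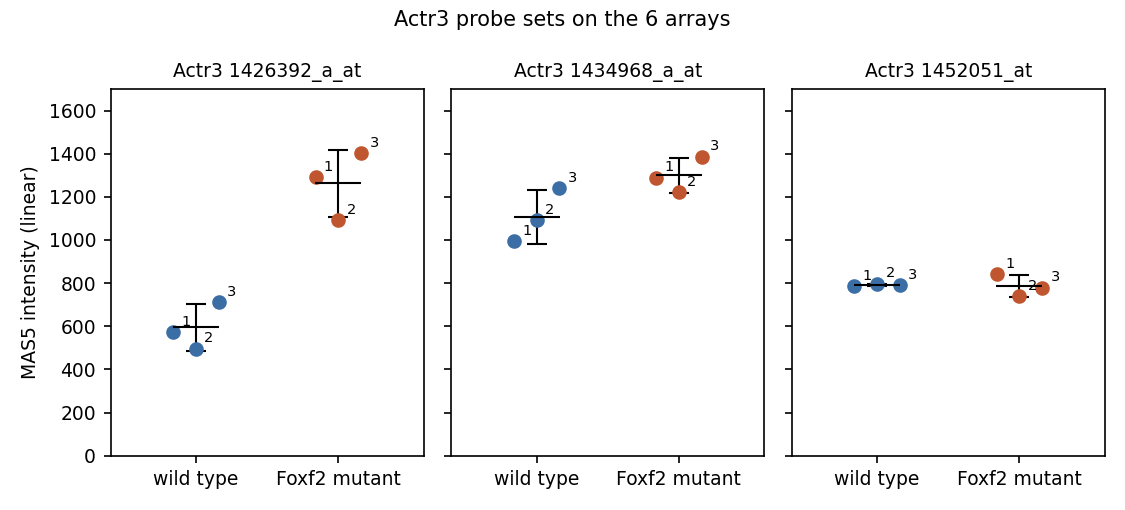
MAS5 intensity (linear axis from 0) of the 3 Actr3 probe sets on the 6 arrays, with each point numbered by replicate and the bars giving the group mean ± SD (n = 3). The groups are far apart on 1426392_a_at, with means of 595 and 1262, overlap by 1 array on 1434968_a_at and coincide on 1452051_at, with means of 791 and 788.

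The platform annotation lists the same source sequence for 1426392_a_at and 1452051_at, the probe sets that differed most within Actr3. The probe sequences themselves were not examined. The ratio of 1426392_a_at to 1452051_at within each array, set to a geometric mean of 1 over the wild-type arrays, was 0.983, 0.837 and 1.21 in wild-type and 2.06, 1.99 and 2.42 in mutant arrays. It was 2.15-fold higher in the mutant mean. The ratio to 1434968_a_at was 1.82-fold higher. Both ratios have 1426392_a_at on top, the set chosen for its high value in the mutant, so their rise is partly built in. They describe an unequal change of the 3 probe sets, not which of them follows the Actr3 transcript.

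Arpc1a encodes a WD-repeat subunit of the complex that meets the nucleation-promoting factors. Its probe set 1416079_a_at gave 603, 600 and 574 in wild-type and 605, 570 and 587 in mutant arrays. The groups overlapped throughout, and the log2 difference was -0.01 ± 0.06 (SE). For Arpc1b, the paralog known as the main form in blood cells, the brighter of the shared probe sets (1416226_at, annotated to Gm5637 too) read 91.2, 93.5 and 74.0 in wild-type and 86.4, 94.2 and 104 in mutant arrays. These groups overlapped as well, and the signals of Arpc1b and Gm5637 cannot be separated there.

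Arpc2 and Arpc4 form the core dimer on which the complex is assembled and through which it holds the mother filament. On 1437148_at, Arpc2 read 1690, 1760 and 1656 in wild-type and 1799, 1672 and 1770 in mutant arrays. The values interleaved, and the log2 difference of 0.04 ± 0.06 (SE) turned to -0.02 with median centring and to -0.01 with quantile normalization. The dim Arpc2 probe set 1442295_at, with means of 15.1 and 14.5, lay close to the limit of the filter. Arpc4 gave 303, 313 and 293 in wild-type and 309, 295 and 316 in mutant arrays on 1423588_at. Its log2 difference of 0.02 ± 0.07 (SE) turned to -0.04 with median centring. On the other Arpc4 probe set, 1423589_at, mutant array 2 was lowest with 152 while the rest lay between 185 and 224, and the log2 difference was -0.14 ± 0.11 (SE). It was -0.03 without mutant array 2 and -0.06 without wild-type array 2, which held the highest value.

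Arpc5 and Arpc5l encode alternative forms of the smallest subunit, which tethers Arp2 to the rest of the complex. The bright Arpc5 probe set, 1448129_at, gave 1290, 1264 and 1221 in wild-type and 1041, 1135 and 1246 in mutant arrays. Mutant arrays 1 and 2 lay below the wild-type range and mutant array 3 inside it, so the groups overlapped. The log2 difference was -0.14 ± 0.07 (SE), and ran from -0.08 without mutant array 1 to -0.21 without mutant array 3. For Arpc5l, the _s_at set 1436421_s_at gave 261, 271 and 247 in wild-type and 251, 215 and 221 in mutant arrays, a log2 difference of -0.17 ± 0.08 (SE). Only mutant array 1 reached into the wild-type range. Another Arpc5l probe set, 1452044_at, gave 478, 550 and 510 in wild-type and 421, 539 and 524 in mutant arrays. Its difference of -0.06 ± 0.10 (SE) became 0.05 without mutant array 1, which held the lowest value, and -0.01 without wild-type array 2, which held the highest. The other 3 probe sets of these genes, 1444568_at for Arpc5 and 1441190_at and 1444011_at for Arpc5l, had group means from 1.43 to 13.9 and were too dim to be tested.

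Of the 11 tested subunit probe sets, 1 passed the threshold and was higher in the mutant, the Actr3 set by which the complex was chosen, beside 0.366% of all 27022 tested probe sets and 0.562% of the 3559 tested _a_at sets. In the lower direction 0 of the 11 passed, beside 0.0222% of all tested. The unadjusted limma p was under 0.05 for 2 of the 11 in the higher direction, both of Actr3 and 1 of them the set by which the complex was chosen, and for 0 in the lower, beside 7.78% and 5.8% of all tested probe sets. These counts depend on scaling. With median centring this limma p was 0.085 for Actr3 1434968_a_at. It was 0.032 for Arpc5 1448129_at and 0.025 for Arpc5l 1436421_s_at, both lower, beside 1374 higher and 3114 lower of all 27022. With quantile normalization these 3 sets had 0.042, 0.030 and 0.10. The groups did not overlap on 1 of the 11, beside 20.3% of all tested probe sets. The median log2 difference of the other 10 was -0.02, with a range of -0.17 to 0.23, beside a median of -0.01 over all tested probe sets, whose quartiles were -0.11 and 0.11. The 95% intervals of these 10 all lay between -0.40 and 0.43. That of 1426392_a_at began at 0.78, but this set was chosen for its high value, so the gap is partly built in. With the brightest probe set of each of the 6 genes, the median was 0.0033 and 0 passed, 1 of them (Actr3, on 1434968_a_at) with an unadjusted limma p under 0.05 and higher, beside 7.59% of the 12577 genes tested with 1 probe set each. The brightest probe set only stands for its gene here, and levels were not compared between genes, since brightness depends on the probes.

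**Figure D2:**
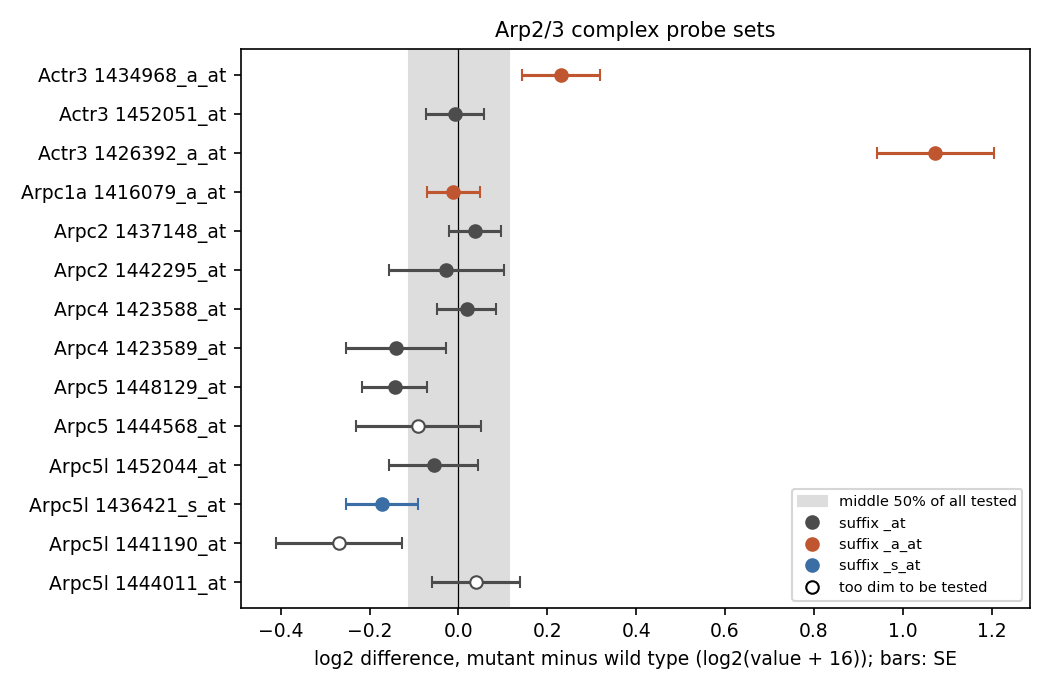
Log2 difference, mutant minus wild type, of the 14 Arp2/3 probe sets (points, coloured by suffix; bars give the SE of limma; open points were too dim to be tested), with the middle 50% of all tested probe sets shaded from -0.11 to 0.11. A single point, Actr3 1426392_a_at at 1.07, lies far to the right, and the other tested sets lie between -0.17 and 0.23.

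The log2 difference on 1426392_a_at was 0.99 without mutant array 3 and 1.21 without wild-type array 3, the arrays that stood apart. Since the groups do not overlap on this probe set, leaving out an array could not turn its direction. The difference was no longer past the threshold when any of the mutant arrays 1, 2 and 3 or the wild-type arrays 1 and 2 was left out, or when limma ran with no variance trend, with adjusted p from 0.00234 to 0.121 over 17 alternatives. Over the same alternatives the log2 difference ran from 0.95 to 1.21. That of 1434968_a_at ran from 0.16 to 0.31 and that of 1452051_at from -0.06 to 0.03.

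**Figure D3:**
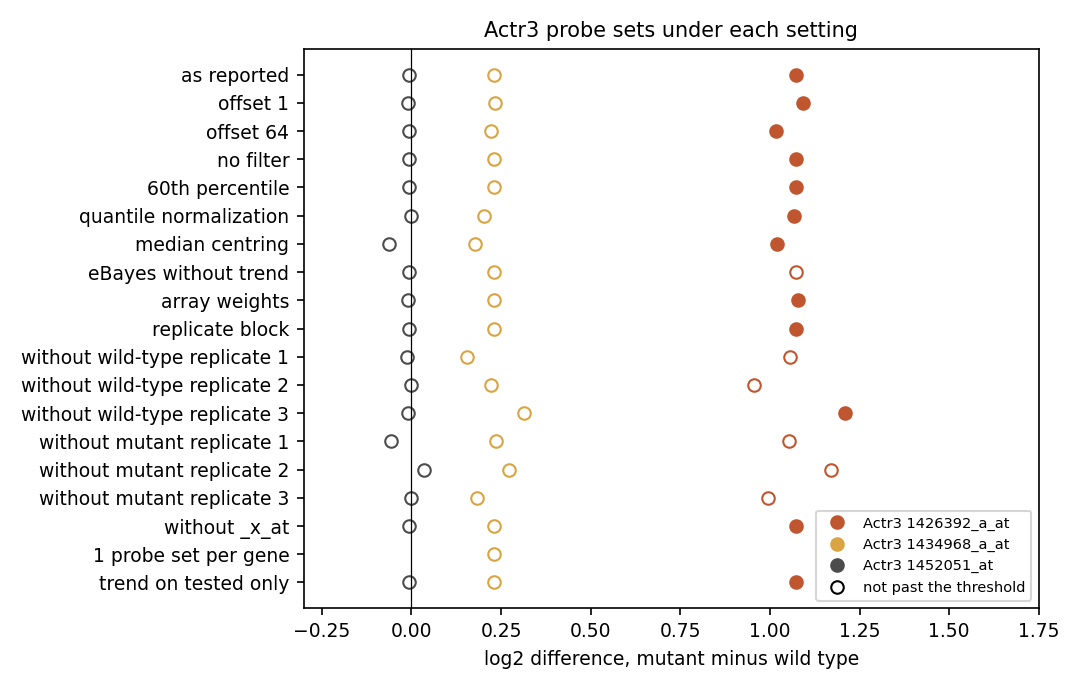
Log2 difference, mutant minus wild type, of the 3 Actr3 probe sets under the reported setting and each alternative (rows; filled points were past the threshold). The 3 columns of points stay apart under every setting shown, and only 1426392_a_at has filled points; it has no point for 1 probe set per gene, where 1434968_a_at represents Actr3.

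The probe sets whose profile over the 6 arrays was closest to 1426392_a_at were sought by the root mean square distance of their log2 values, each centred on its own mean. The 5 closest singly named genes were Tmem41b (an endoplasmic reticulum lipid scramblase, distance 0.077), Hnrnph1 (an RNA-binding protein of splicing, 0.103), Itsn1 (an endocytic scaffold, 0.117), Rab6a (a Golgi GTPase, 0.126) and Rif1 (a factor of replication timing and DNA repair, 0.135). Their log2 differences were between 0.87 and 1.02. Hnrnph1 and Rif1 did not pass the threshold. Hnrnph1 and Rab6a were read on _x_at sets, and the median log2 difference of all 1631 tested _x_at sets was 0.10. The other Actr3 sets were farther away, at 0.439 for 1434968_a_at and 0.568 for 1452051_at, and 1776 and 11237 of the 27022 tested probe sets, respectively, were closer to 1426392_a_at than these. The distance rests largely on the group difference, the value by which 1426392_a_at was chosen. In Tmem41b and Itsn1 too, another tested probe set listed with the same source sequence did not share the rise, at 0.06 and -0.13. Rab6a had no such partner. Hnrnph1 and Rif1 were not looked up, since partners were sought only for sets past the threshold.

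**Figure D4:**
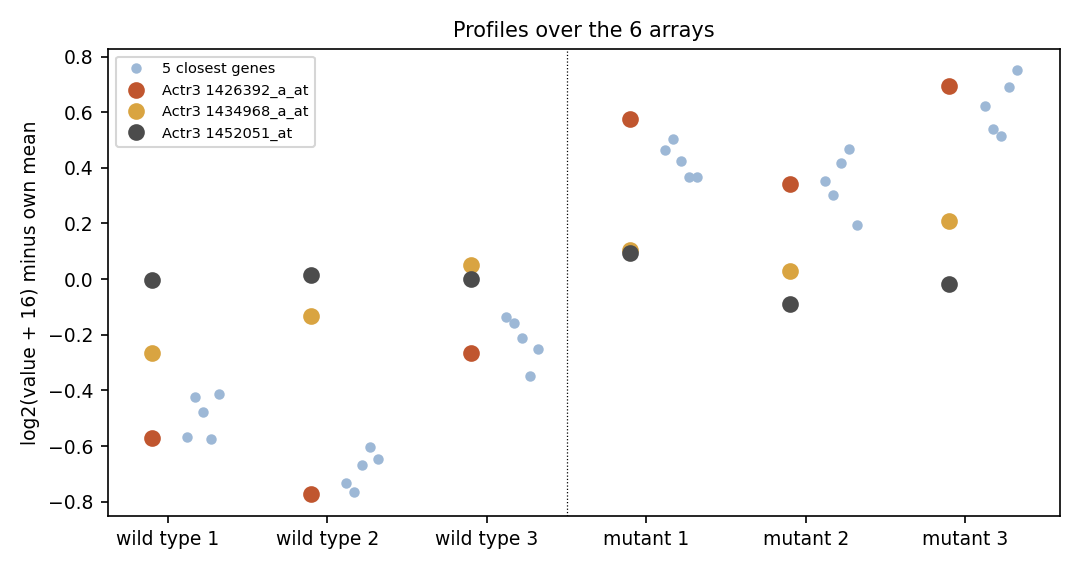
Log2(value + 16) minus its own mean over the 6 arrays for the 3 Actr3 probe sets and the 5 genes closest to 1426392_a_at (small points). The 5 genes and 1426392_a_at lie below 0 on the wild-type arrays and above 0 on the mutant arrays, while 1452051_at stays within 0.1 of 0 on all 6.

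The genes that drive, restrain or supply the complex were read from 6 lists with 44 genes, each gene by its brightest singly named probe set. Of these, 41 had such a probe set and 38 were bright enough to be tested. Over all tested probe sets, limma called 0 of the 38 higher and 0 lower, and the unadjusted p was under 0.05 for 2 higher and 3 lower genes, beside 7.59% higher and 6.01% lower of all genes tested with 1 probe set each. The groups did not overlap for 14 of the 38, beside 21% of the genes tested in that way. The median log2 difference was 0.03, with quartiles of -0.08 and 0.08. Counting all 85 tested probe sets of these 38 genes, 0 passed as well, and the unadjusted p was under 0.05 for 11 higher and 6 lower sets, beside the 7.78% and 5.8% of all tested probe sets. Actr3b, the paralog of Actr3, was not analysed here, nor were Cyfip1 and Gmfg.

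Among 12 nucleation-promoting factors and their partners, 10 were tested, with a median log2 difference of -0.05. Wipf3, a WASP-interacting protein, read 84.7, 84.6 and 89.9 in wild-type and 70.1, 76.4 and 57.1 in mutant arrays, a log2 difference of -0.29 ± 0.11 (SE). Wasf1, the WAVE1 protein of neurons, read 959, 1023 and 1061 in wild-type and 1198, 1290 and 1158 in mutant arrays, a log2 difference of 0.26 ± 0.07 (SE). On neither gene did the groups overlap, and neither passed. Was, the factor of blood cells, was too dim to be tested, with means of 2.73 and 10.1.

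Of the WAVE regulatory complex, which activates Arp2/3 at the cell edge, 6 genes were tested, with a median log2 difference of 0.09. Abi1, an adaptor that ties the WAVE complex together, resembled Actr3 in that its probe sets disagreed. On 1423177_a_at it read 390, 381 and 431 in wild-type and 480, 625 and 590 in mutant arrays, a log2 difference of 0.47 ± 0.10 (SE) without overlap that did not pass. On 1450890_a_at it read 449, 480 and 423 in wild-type and 445, 488 and 452 in mutant arrays, which overlapped, with a difference of 0.03 that turned to -0.02 with median centring. On the dimmer 1438506_s_at the groups again did not overlap, with means of 59.4 and 96.1. Nckap1l, the form of blood cells, had a difference of 0.15 at intensities between 15.7 and 28.5.

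The 5 WASH complex genes, which drive branched actin on endosomes, had a median log2 difference of -0.07, with Washc4 at -0.14 and Washc2 at -0.08. Of these genes 2 were higher and 3 lower, or 0 higher and 5 lower with median centring. The Washc4 value came from an _x_at set, 1439450_x_at, on which the groups did not overlap. The Washc4 sets 1437719_x_at and 1427319_at were lower too, at -0.11 and -0.08, with overlap. A dimmer Washc4 probe set, 1436353_at, had means of 55.0 and 76.5 without overlap, so this gene too read in both directions. The 7 tested inhibitors and debranching factors had a median of -0.15, with 2 higher and 5 lower, or 3 higher and 4 lower with quantile normalization. The coronin genes Coro1a and Coro1c had -0.19 ± 0.07 (SE) and -0.18 ± 0.07 (SE) on their brightest probe sets, without overlap and without passing. On another Coro1a probe set, 1455269_a_at, the groups overlapped with means of 204 and 199, a log2 difference of -0.03 that turned to 0.0030 with quantile normalization. The brightest Coro1c probe set was an _s_at set, 1449660_s_at. On Coro1c 1417752_at the groups overlapped with means of 233 and 213, a log2 difference of -0.12. The much dimmer Coro1c probe set 1419911_at went the other way, from 25.4 to 38.8.

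The 10 genes of actin itself and of monomer and filament-end proteins had a median log2 difference of 0.07, with 8 higher and 2 lower. Quantile normalization gave a median of -0.0034 with 5 higher and 5 lower, and median centring 0.01 with 8 higher and 2 lower. Tmsb4x, the actin monomer-sequestering thymosin, and Capza2, a capping protein subunit, had the largest differences, 0.11 and 0.10. On another Capza2 probe set, 1423058_at, the groups overlapped, with means of 679 and 679. The log2 difference there was 0.00053, or -0.05 with median centring. Actb, beta-actin, read 5483, 5056 and 5228 in wild-type and 5526, 5375 and 5498 in mutant arrays on its bright probe set, a difference of 0.06 that turned to -0.03 with quantile normalization. A dim Actb probe set, 1419734_at, read 72.3, 48.2 and 61.1 in wild-type and 101, 112 and 115 in mutant arrays, a difference of 0.72 without overlap that did not pass.

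**Figure D5:**
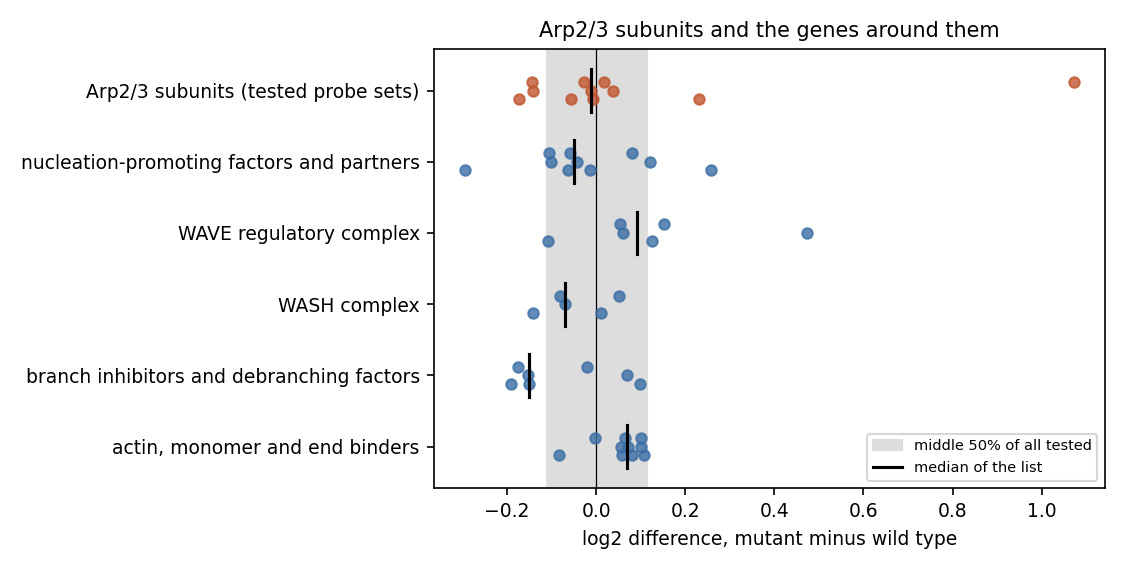
Log2 difference, mutant minus wild type, of the 11 tested Arp2/3 probe sets (top row) and of the tested genes of 5 lists around the complex, 1 point each, with the median of each list as a bar and the middle 50% of all tested probe sets shaded. Apart from Actr3 1426392_a_at at 1.07, the points lie between -0.29 and 0.47, the latter being Abi1.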

How the data were processed

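The authors deposited MAS5 intensity values on a linear scale, per the submitters' processing notes, whose version is not given in the sources used here. RNA was taken with a Sigma kit and labelled with biotin, per the labels' protocols. With 2% of probe sets trimmed at each end, the deposited intensity of every array averaged 100. The arrays had thus been scaled alike, which hides a change in total RNA, and no further normalization was made. Of 45101 probe sets, 64 controls were left out. The platform annotation gave 34945 probe sets 1 gene, 932 several and 9160 none. An offset of 16 was added before taking log2. The 2-sided comparison of mutant with wild type used lmFit and trended eBayes of limma 3.58.1 under R 4.3.3, Benjamini-Hochberg adjustment over 27022 probe sets and a threshold of 0.05. The fit was tested on simulated data. The number of arrays limits the precision. Differences on this scale understate the change of dim genes.

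The members, the gene lists and the tests were chosen with earlier results of these data known. Any subunit probe set could be named; in each list the genes past the threshold, otherwise the 2 with the largest absolute log2 difference; and the 5 genes closest to 1426392_a_at. Wasf1, Actb and the further probe sets of Abi1, Washc4, Coro1a, Coro1c, Capza2, Vim and Actb were named after their values were seen. Alternatives covered offset, filter, scaling, variance trend, array weights, replicate number, left-out arrays, suffix and 1 probe set per gene. No coordinates are printed, because the sources used here name no genome build. A further gene list is not reported here.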

Additional observations from a re-analysis of the deposited data

Results flagged for a closer look

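The beta-actin control probe sets, which the comparison left out, read higher on the mutant arrays without overlap on 2 of 3. The control for the 3′ part read 6101, 5768 and 6034 in wild-type and 6452, 6340 and 6570 in mutant arrays, a ratio of 1.08, and that for the middle part had a ratio of 1.07. The control for the 5′ part overlapped, with a ratio of 1.04. These values are outside the tested probe sets, and the part of array scaling in them was not tested.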

How the results depend on the processing

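The subunit count of 1 probe set past the threshold was kept with both other offsets, both other filters, both other scalings, array weights, the replicate block, no _x_at sets and, chosen after seeing the data, a variance trend estimated on tested probe sets only. It was 0 without the trend and with 1 probe set per gene, where 1426392_a_at drops out by construction, and 0 to 1 with 1 array left out. At an unadjusted p under 0.05, limma without the trend gave 3503 of all tested probe sets. The count over all tested probe sets, 105, was 181 and 64 with offsets 1 and 64, 52 without a filter, 168 with the 60th percentile, 56 with median centring, 0 without the trend, 32 without _x_at sets, 12 with 1 probe set per gene, 200 with the trend on tested sets and 0 to 34 with 1 array left out; causes were not tested. The replicate block gave 220 in all and 1 among the subunits. Same-numbered arrays had correlations of their deviations from the group means of 0.183, 0.132 and 0.0892, so not every pair was over 0.1 and the numbers were not taken as a pairing, although every array correlated best with its own number. Dim probe sets are limited by signal near the floor: the Arpc5 difference on 1444568_at was -0.09, and -0.70 with offset 1.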

Other observations

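The contrast between probe sets of Actr3 was looked for in the other probe sets that were past the threshold and higher in the mutant, after the Actr3 values had been seen. Of these 99, 27 had at least 1 other tested probe set with the same source sequence in the platform annotation, 36 partners in all. The median log2 difference was 0.73 on the 27 and 0.06 on the 36 partners, whose quartiles were -0.07 and 0.19. Of the 36, 0 passed, beside 0.366% higher and 0.0222% lower of all tested probe sets, so few would pass at that share. The 27 were selected for passing, so lower values on the partners are partly built in. Prdx4, a peroxiredoxin of the endoplasmic reticulum, had 1.16 on an _a_at set and -0.10 on its partner. Ube2d2a, a ubiquitin-conjugating enzyme, had 0.80 on an _a_at set and -0.09, 0.08 and -0.02 on its 3 partners. The partner of Oxct1, a ketone body enzyme, was highest with 0.55 beside 0.82.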
